A study of Mus musculus with 15 samples.

Results

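Histone genes were followed through mouse embryonic stem cells that were kept undifferentiated, allowed to differentiate, or held in hyperosmotic medium. A gene was included when its symbol began with Hist1h to Hist4h, H2af, H3f3 or H1f and when it had at least 15 counts summed over the 15 libraries. Of 74 symbols that matched, 52 met this minimum, among 21516 genes listed. They comprised 41 genes of the histone clusters (5 for H1, 9 for H2A, 10 for H2B, 9 for H3 and 8 for H4) and 11 genes for histone variants. The minimum fell between Hist1h2ah and Hist1h4f, with 14 counts each and left out, and H1foo and Hist3h2a, with 16 and 20 counts and kept.

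The cells were the REX-1 RFP embryonic stem cell line, in which the promoter of Rex1, a gene of the naive pluripotent state, drives a red fluorescent protein. Each of the 5 groups had 3 libraries after 72 h of culture. The ND group (the label's normal differentiation) was grown without LIF, a cytokine on which mouse embryonic stem cells depend to stay undifferentiated. The Sorb200, Sorb250 and Sorb300 groups kept LIF and received 200, 250 or 300 mM sorbitol, a poorly permeant sugar alcohol that makes the medium hyperosmotic. The NS group (normal stemness) had LIF alone and served as the control of both. All groups share the reporter line and a preceding passage in LIF, and the libraries hold whole cultures, not cells sorted by the reporter. In such bulk libraries, fewer cells of a type and less RNA per cell cannot be told apart.

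Histones package DNA into nucleosomes, with H2A, H2B, H3 and H4 in the core and H1 on the linker. The clustered, replication-dependent genes supply the bulk of these proteins during S phase, and their mRNAs typically end in a conserved stem-loop instead of a poly(A) tail, although some cluster genes also give polyadenylated mRNA in differentiated cells. The variant genes are mostly spliced and polyadenylated and are transcribed through the cell cycle. The libraries were made with a 3′ tag method that primes on poly(A), so a count of a cluster gene is a count of the transcripts this priming reached, and how much stem-loop mRNA was missed was not measured.

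The stem-loops of the cluster genes discussed below are shown because they are the 3′ end the assay does not prime. The 16-base histone stem-loop consensus was searched in the sense strand of the annotated coding transcripts of GENCODE M21 (build GRCm38). It was found in the longest transcript of 27 of the 41 cluster genes and of 1 of the 11 variant genes, H2afx, against 68 of 21901 coding genes overall (0.31%). The stem-loop is in capitals, with 5 flanking bases on each side in lower case, 5′ to 3′ on the strand of the gene. Genes were matched to the annotation by symbol. The deposited tables pair Hist1h2bk, Hist1h3c, Hist1h4d, Hist1h1c, Hist1h2ae and H2afx with an Ensembl identifier that GENCODE gives to another gene, so for these the sequence belongs to the symbol only.
Hist1h2bk, chr13:22036295-22036320 on the plus strand: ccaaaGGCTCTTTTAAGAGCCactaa
Hist1h3c, chr13:23745042-23745067 on the minus strand: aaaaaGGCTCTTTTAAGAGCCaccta
Hist1h4b, chr13:23757361-23757386 on the plus strand: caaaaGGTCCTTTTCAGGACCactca
Hist1h4d, chr13:23581945-23581970 on the plus strand: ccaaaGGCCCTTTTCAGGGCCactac
Hist1h1c, chr13:23739507-23739532 on the plus strand: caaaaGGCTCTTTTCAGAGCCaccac
Hist1h1e, chr13:23621777-23621802 on the minus strand: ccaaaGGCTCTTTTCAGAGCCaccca
Hist1h2ae, chr13:23570663-23570688 on the minus strand: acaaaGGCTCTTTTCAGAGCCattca
H2afx, chr9:44335235-44335260 on the plus strand: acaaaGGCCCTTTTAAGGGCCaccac

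The commonest form, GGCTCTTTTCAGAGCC, occurred in 14 of the cluster genes, of the H1, H2A, H2B and H3 types. The form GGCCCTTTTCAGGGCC occurred in 4 genes, all of the H4 type. The genes differed in how far the annotated transcript ran on past the stem-loop. It ended 28, 30 and 74 bases past it in Hist1h4b, Hist1h2bk and Hist1h3c, but 151, 770, 840 and 1153 bases past it in Hist1h2ae, Hist1h4d, Hist1h1c and Hist1h1e. H2afx, whose mRNA is known from human cells in both a stem-loop and a polyadenylated form, ran on for 822 bases. Hist1h2bc (chr13:23684199-23692908, plus strand) had a single annotated coding transcript, of 1156 bases in 2 exons, without a stem-loop match, and its deposited identifier is the one GENCODE gives to Hist1h2bk. The 743-base, single-exon transcript of Hist1h1b (chr13:21779883-21780625, minus strand) had no match either.

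Promoters are shown for Hist1h2bk, Hist1h3c and Hist1h4b, cluster genes that fell at the highest sorbitol dose and that differ in these motifs, from 250 bases before to 50 bases after the start site in RefSeq (GRCm38.p6). Capitals mark the octamer ATTTGCAT, CCAAT and TATAAA on either strand, and no pair of these motifs shares bases.
Hist1h2bk, chr13:22035571-22035870 on the plus strand: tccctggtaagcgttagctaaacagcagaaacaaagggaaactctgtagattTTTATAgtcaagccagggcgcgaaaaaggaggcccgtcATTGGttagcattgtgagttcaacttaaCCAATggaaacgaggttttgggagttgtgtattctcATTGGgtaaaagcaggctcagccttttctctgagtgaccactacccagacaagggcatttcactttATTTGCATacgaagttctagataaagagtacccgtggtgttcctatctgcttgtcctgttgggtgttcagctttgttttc
Hist1h3c, chr13:23745472-23745771 on the minus strand: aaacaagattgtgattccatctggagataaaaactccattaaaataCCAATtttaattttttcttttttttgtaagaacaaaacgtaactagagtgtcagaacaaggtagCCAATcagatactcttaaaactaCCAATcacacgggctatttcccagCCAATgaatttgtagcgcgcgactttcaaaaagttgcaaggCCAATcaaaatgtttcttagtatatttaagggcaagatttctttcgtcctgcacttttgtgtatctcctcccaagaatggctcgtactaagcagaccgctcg
Hist1h4b, chr13:23756687-23756986 on the plus strand: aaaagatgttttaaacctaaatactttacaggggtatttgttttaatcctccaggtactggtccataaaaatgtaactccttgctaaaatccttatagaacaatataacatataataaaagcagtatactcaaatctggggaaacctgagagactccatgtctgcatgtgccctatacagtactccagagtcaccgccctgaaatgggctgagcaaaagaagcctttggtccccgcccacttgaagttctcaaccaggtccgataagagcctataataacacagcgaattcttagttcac

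The Hist1h4b window held none of the 3 motifs. The window of Hist1h1b, the other cluster gene that fell, held CCAAT 3 times and TATAAA once, without the octamer. A promoter was matched for 46 of the 52 genes, 36 of them cluster genes. CCAAT was present in 30 of the 36 cluster promoters (83.3%), against 37.4% of all 32544 promoters of the same length. TATAAA was present in 22 (61.1%), against 13.6% of all promoters. The octamer, known as the element that OCT factors bind in H2B promoters, was present in 8 (22.2%), against 1.75% of all promoters. It lay in 4 of 8 H2A and 4 of 7 H2B promoters and in none of the 5 H1, 8 H3 and 8 H4 promoters. Some H2A and H2B windows overlap, such as those of Hist1h2ae and Hist1h2bg, which both counted for the octamer. The 36 cluster windows are therefore not 36 separate promoters. CCAAT was in only 2 of 8 H4 promoters. A match describes letters in these windows and says nothing on binding.

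Library totals were 968556 to 2289528 counts, with replicate 1 the deepest in each group, and 9390 genes had enough counts to be tested. The embryonic stem cell label fitted its markers, since all 10 stem cell markers were detected in sum at 2324 to 4207 CPM (counts per library scaled to a common size by the TMM method) in every library. Of 12 listed trophoblast markers, 11 were found and had counts in some library, although Cdx2 had 0 counts in NS and in ND. They summed to 112 to 177 CPM in ND and 65.4 to 77.6 CPM in NS. With sorbitol the sum was 166 to 463 CPM in Sorb200, 394 to 554 CPM in Sorb250 and 325 to 499.9 CPM in Sorb300. Krt18 and Krt8 made up much of it, at means of 150 and 119 CPM in Sorb250. Ribosomal protein genes set NS 1, NS 2 and ND 2 apart, with a median of -0.51, -0.43 and 0.84 (log2 of CPM plus 1, relative to each gene's mean), against -0.12 to 0.17 in the other 12 libraries.

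Low counts limited what could be tested, and reads may have been divided between near-identical cluster genes. Only 19 of the 52 histone genes passed the filter, 9 cluster genes and 10 variants. The other 33 genes were 32 cluster genes, with totals of 20 to 98 counts over the 15 libraries, and the oocyte linker histone H1foo. The 41 cluster genes summed to 0.0137 to 0.0315% of all counts in a library and the 11 variants to 0.156 to 0.281%. A count of 3, the limit that a count of 0 allows, corresponded to 1.42 to 3.58 CPM. Of the tested genes, Hist1h2bc reached the filter's level (8.37 CPM in at least 3 libraries, by unscaled library totals) in no NS library, in 1 ND library and in all 9 sorbitol libraries. Hist1h2bk and Hist1h4b reached it in 2 NS libraries and 1 ND library only, and Hist1h3c in all NS and ND libraries and 1 Sorb200 library. Hist1h4d reached it in 2 NS libraries, 1 ND library and 2 Sorb200 libraries, and in none at 250 or 300 mM. Each of these cluster genes passed through groups in which it was high. How many of the tested genes lie on one side, or how many are called beside the share of all genes, therefore carries no weight.

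**Figure D1:**
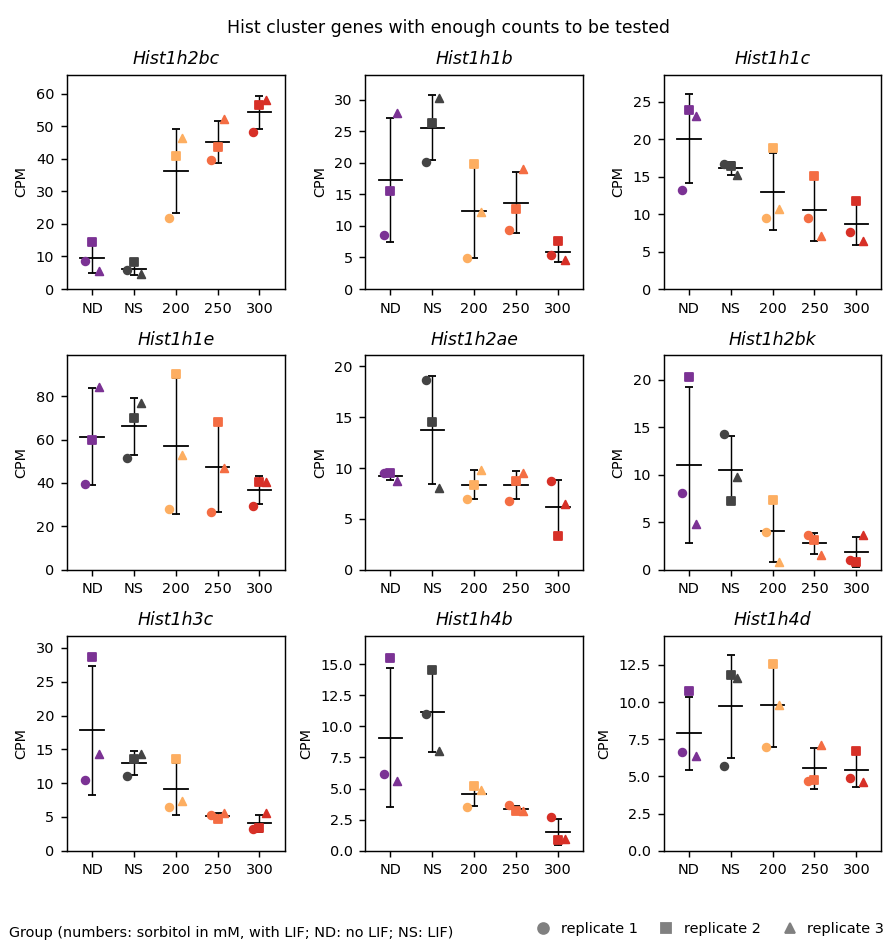
Expression of the 9 tested cluster genes in each library (CPM, linear axes from 0) in ND, NS and the 3 sorbitol doses in mM; points are libraries, the horizontal line is the mean and the bar the SD (n = 3). Hist1h2bc lies between 21.9 and 58.0 CPM in the 9 sorbitol libraries and between 4.46 and 14.3 CPM in the 6 others, while every other gene shown has its lowest mean at 300 mM.

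Without LIF, no histone gene changed past the test. In edgeR's quasi-likelihood test of ND against NS, 0 of 19 histone genes had an adjusted p under 0.05, where 0.0319% of the 9390 genes did. DESeq2 also called 0, and 1 histone gene of 19 had an unadjusted p under 0.05 in edgeR, where 6.39% of all genes did. That gene was H1fx, a linker histone expressed independently of replication, with 86.6, 99.1 and 100.3 CPM in the ND libraries, against 224, 178 and 111 CPM in the NS libraries. The groups did not overlap, and the change was -0.85 ± 0.30 (log2, SE; adjusted p = 0.578). Among cluster genes, the extremes were Hist1h2bc, at 0.57 ± 0.42 (adjusted p = 0.854), and Hist1h2ae, at -0.59 ± 0.40 (adjusted p = 0.828). ND 2 was the highest ND library for each tested cluster gene except Hist1h1b and Hist1h1e. Summed cluster expression was 164, 326 and 268 CPM in ND, against 247, 299 and 259 CPM in NS, with overlap.

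Hist1h2bc, which encodes a canonical H2B, rose at every sorbitol dose and was the only histone gene called higher against NS at each. It had 8.52, 14.3 and 5.57 CPM in the ND libraries. Along the dose series it had 5.73, 8.18 and 4.46 CPM in NS, then 21.9, 40.8 and 46.5 CPM at 200 mM, 39.8, 43.7 and 52.3 CPM at 250 mM, and 48.4, 56.4 and 58.0 CPM at 300 mM. Each of the 9 sorbitol libraries was above all 6 libraries without sorbitol.

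At 200 mM, Hist1h2bc averaged 36.4 ± 12.9 CPM, against 6.12 ± 1.89 CPM in NS (SD, n = 3 each), a log2 change of 2.55 ± 0.38 (SE). The adjusted p was 0.00645 by edgeR. It was the 1 histone gene called of 19, where 0.586% of all genes were called. Same-numbered libraries of these 2 groups were treated as paired in the block alternative only. Their deviations from the group means correlated, at 0.68, 0.11 and 0.62 for replicates 1, 2 and 3. Replicate 1 was the deepest library in each group, and the source of the correlation was not tested. The values above come from the fit without a block. With the number as a block the count of histone genes called was 1, while that of all genes was 268, against 55 without the block. With replicates 2 and 3 only, the change was 2.77 (adjusted p = 0.075), and in a fit of these 2 groups alone it was 2.57 (adjusted p = 0.196). Replicate 1, with 1 library a group, gives no test of its own.

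The rise was 2.88 ± 0.38 at 250 mM (adjusted p = 0.000644) and 3.14 ± 0.38 at 300 mM (adjusted p = 0.000249). Hist1h2bc averaged 54.3 ± 5.15 CPM at 300 mM, against 6.12 ± 1.89 CPM in NS. Each of the 3 calls stood under each omission of 1 library, with the highest adjusted p, 0.0452, at 200 mM without NS 1. Against ND, the mean of the 3 sorbitol groups was higher by 2.28 ± 0.33 (adjusted p = 0.000377). The difference between the doses did not pass the test, since Sorb300 minus Sorb200 was 0.59 ± 0.32 (adjusted p = 0.609), although each Sorb300 library was above each Sorb200 library. The summed trophoblast markers given above were also higher in 8 of the 9 sorbitol libraries than in every ND and NS library, and in Sorb200 2 they were at 166 CPM, against 177 CPM in ND 3. The summed stem cell markers separated fully, at 3408 to 4207 CPM with sorbitol, against 2324 to 3132 CPM in ND and NS. The 10 primitive endoderm markers summed to 194 to 268 CPM at 300 mM, against 72.1 to 105 CPM in NS. At 200 mM their sum was 111 to 187 CPM, overlapping ND at 100 to 132 CPM. The part of any of these marker sets in the Hist1h2bc result was not tested.

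Most of the other cluster genes had lower estimates with sorbitol. In a fit without a filter on low counts, which takes in all 41 cluster genes, 30, 30 and 31 had a negative change against NS at 200, 250 and 300 mM, where 42.8, 48 and 47.2% of 17397 genes did. In ND minus NS 23 of the 41 were negative (45.8% of all genes), and in both Sorb300 minus Sorb200 and sorbitol minus ND 29 were (51.6 and 49% of all genes). These counts are descriptions with no test, and the comparisons with NS share its libraries.

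**Figure D2:**
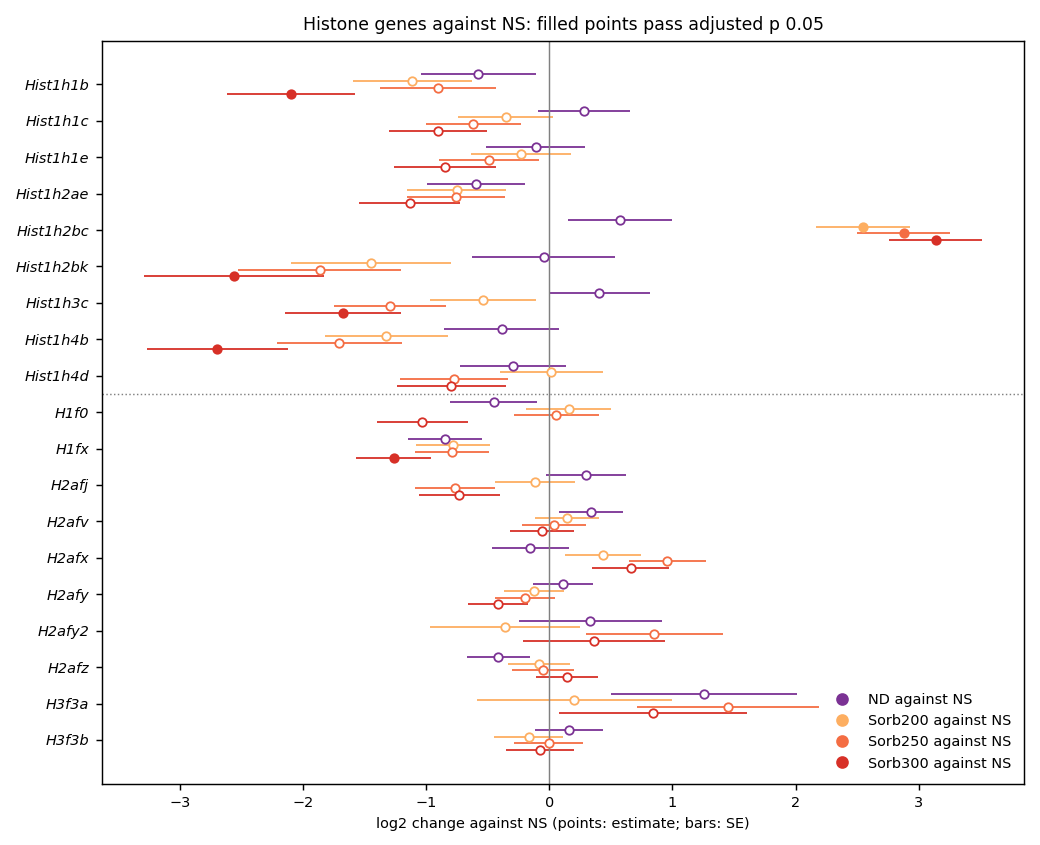
Log2 change against NS for the 19 tested histone genes, cluster genes above the dotted line and variants below it; points are estimates, bars are SE, and filled points had an adjusted p under 0.05 by edgeR. Hist1h2bc is filled at all 3 doses, at 2.55, 2.88 and 3.14, and the 5 filled points on the left, from -1.26 to -2.70, are all at 300 mM.

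At 300 mM, 6 histone genes of 19 were called, 1 higher and 5 lower, where 7.89% of all genes were called, 3.23% higher and 4.66% lower. At an unadjusted p under 0.05 there were 11 of 19, where 24.7% of all genes passed. Hist1h2bc, Hist1h4b, Hist1h3c and Hist1h2bk are among the genes that passed the filter through groups in which they were high. The counts of 6 and 11 of 19 therefore cannot be read as an excess over all genes. The 4 cluster genes that fell encode H4, H1, H3 and H2B. Hist1h4b, for H4, had 2.72, 0.842 and 0.921 CPM at 300 mM, from 5, 1 and 1 counts, against 11.0, 14.5 and 8.03 CPM in NS, from 23, 16 and 9 counts. The groups were separate, and the change was -2.70 ± 0.57 (adjusted p = 0.0102). Its levels at 200 and 250 mM, 3.48 to 5.23 and 3.17 to 3.67 CPM, were also below each NS library but did not pass the test.

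Hist1h1b, a linker histone, had 5.44, 7.58 and 4.61 CPM at 300 mM, against 20.1, 26.4 and 30.3 CPM in NS. It fell by 2.10 on the log2 scale (SE 0.52, adjusted p = 0.0223). Hist1h3c, for H3, had 3.26, 3.37 and 5.53 CPM at 300 mM, against 11.0, 13.6 and 14.3 CPM in NS. It fell by 1.68 (SE 0.47, adjusted p = 0.0401). Hist1h2bk, for H2B like Hist1h2bc, had 1.09, 0.842 and 3.68 CPM at 300 mM, from 2, 1 and 4 counts, against 14.3, 7.27 and 9.81 CPM in NS. It fell by 2.56 (SE 0.73, adjusted p = 0.042) while Hist1h2bc, of the same protein type, rose. The identifier deposited for Hist1h2bc is that of Hist1h2bk, and the one deposited for Hist1h2bk is that of Hist2h2be. The contrast therefore holds for the symbols only. In none of the cluster genes that fell did a Sorb300 library reach an NS library. The share of all genes that separate in this way is not given here.

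These falls rested on few counts and few libraries. Omission of 1 library left 3 histone genes called without NS 1, 2 without NS 2, 7 without NS 3, 3 without Sorb300 1, and 1, Hist1h2bc, without Sorb300 2 or Sorb300 3. With replicates 2 and 3 only, 1 was called and the 4 cluster genes had changes of -3.52 (Hist1h4b, adjusted p = 0.0708), -2.19 (Hist1h1b, 0.0566), -1.63 (Hist1h3c, 0.195) and -1.90 (Hist1h2bk, 0.36). The genes of a 33-member S phase list, all detected, summed to 5265 to 5779 CPM at 300 mM, against 6722 to 8426 CPM in NS. Much of the difference lay in Top2a, at a mean of 538 CPM against 1279 CPM, and the DNA ligase Lig1, at 996 CPM against 1648 CPM, and 12 of the 32 tested genes of the list had a positive change. Their part in the falls was not tested.

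Other cluster genes did not pass the test at 300 mM. Hist1h1e, a linker histone, had 29.4, 40.4 and 40.5 CPM at 300 mM, against 51.6, 70.0 and 76.7 CPM in NS, a change of -0.85 ± 0.41 (adjusted p = 0.217). Hist1h1c, also for H1, had 7.62, 11.8 and 6.45 CPM at 300 mM, against 16.7, 16.4 and 15.2 CPM in NS, a change of -0.90 ± 0.40 (adjusted p = 0.173). Neither overlapped between the groups. Hist1h2ae, for H2A, was at -1.13 ± 0.41 (adjusted p = 0.0997) and Hist1h4d, for H4, at -0.80 ± 0.44 (adjusted p = 0.287), both with overlap.

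At 250 mM, 1 histone gene of 19 was called, Hist1h2bc, where 4.47% of all genes were called, 2.01% higher and 2.46% lower. The lowest cluster gene at 200 and at 250 mM was Hist1h2bk, at -1.45 ± 0.65 (adjusted p = 0.424) and -1.86 ± 0.66 (adjusted p = 0.112). Between Sorb300 and Sorb200, 0 histone genes were called by edgeR's quasi-likelihood test, which called 0.0213% of all genes, and 0 by DESeq2, while 3 of 19 had an unadjusted p under 0.05 in edgeR, where 9.3% of all genes did. The lowest cluster gene there was again Hist1h4b, at -1.37 ± 0.63 (adjusted p = 0.523).

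Sorbitol was also set against ND. In the mean of the 3 sorbitol groups minus ND, 5 histone genes were called, 1 higher and 4 lower, where 10.5% of all genes were called, 4.62% higher and 5.85% lower. At an unadjusted p under 0.05 there were 7 of 19, where 24.7% of all genes passed. Hist1h3c averaged 6.12 CPM over the sorbitol groups, against 17.8 ± 9.60 CPM in ND, a change of -1.58 ± 0.34 (adjusted p = 0.00719). Hist1h2bk was at -1.91 ± 0.52 (adjusted p = 0.0274) and Hist1h4b at -1.52 ± 0.42 (adjusted p = 0.0278). The variant H2afj was at -0.84 ± 0.25 (adjusted p = 0.0437). The library ND 2 was the highest ND library for all 4, and without it only Hist1h2bc was called, with Hist1h3c at -1.12 (adjusted p = 0.0751), Hist1h2bk at -1.29 (0.22), Hist1h4b at -1.02 (0.205) and H2afj at -0.50 (0.328). Leaving out ND 1, Sorb300 1 or Sorb300 2 left 3, 3 and 2 histone genes called.

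Over the 5 groups at once, 3 histone genes differed, where 7.97% of all genes did. They were Hist1h2bc (adjusted p = 0.000171), Hist1h4b (adjusted p = 0.0239) and Hist1h3c (adjusted p = 0.0272).

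Sums over genes also take in those too low to test. Without Hist1h2bc, the 40 remaining cluster genes summed to 155, 312 and 263 CPM in ND. Along the dose series they summed to 242, 291 and 254 CPM in NS, 129, 284 and 167 CPM at 200 mM, 119.9, 191 and 157 CPM at 250 mM, and 121, 127 and 121 CPM at 300 mM. Every Sorb250 and Sorb300 library was below every NS library, while Sorb200 and ND overlapped NS. The part of this sum that came from the 32 untested genes was 47.9 to 57.7 CPM at 300 mM, against 80.3 to 116 CPM in NS, without overlap.

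**Figure D3:**
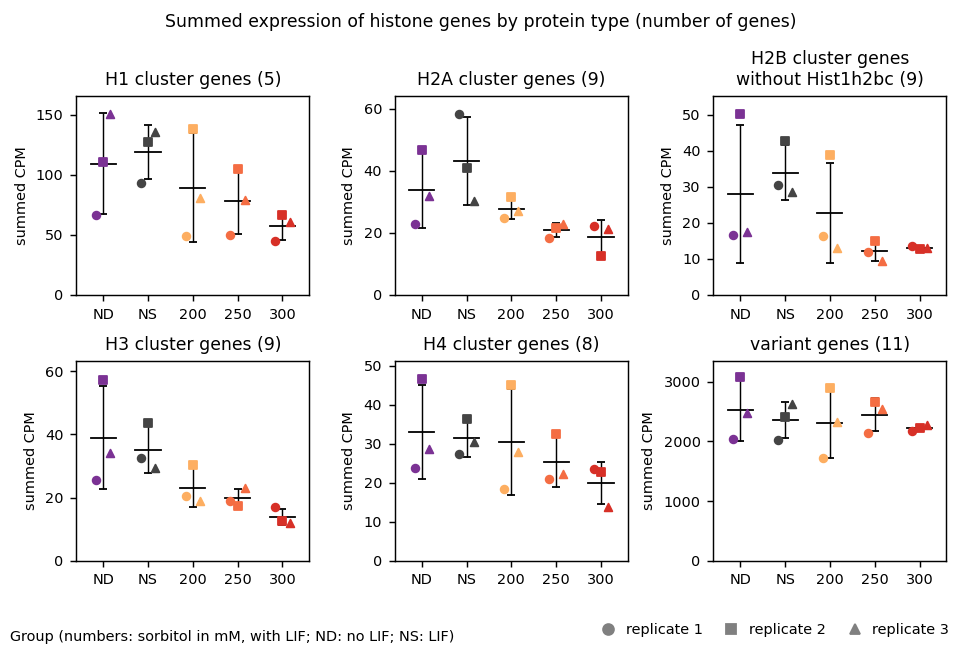
Summed CPM of the cluster genes of each protein type and of the variants, per library (points), with mean (line) and SD (bar, n = 3); the number of genes is in each panel title. The H2B genes other than Hist1h2bc are at 12.6 to 13.6 CPM at 300 mM and 28.6 to 42.7 CPM in NS, and the variants overlap in all groups.

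The H1 genes summed to 57.3 ± 11.4 CPM at 300 mM, against 119 ± 22.5 CPM in NS (SD, n = 3 each). The H3 genes summed to 13.8 ± 2.65 CPM, against 35.2 ± 7.47 CPM in NS, and the H2A genes to 18.7 ± 5.29 CPM, against 43.2 ± 14.1 CPM. The H2B genes other than Hist1h2bc summed to 13.0 ± 0.498 CPM, against 33.9 ± 7.66 CPM, and the H4 genes to 19.99 ± 5.35 CPM, against 31.3 ± 4.64 CPM. In all 5 types, each Sorb300 library was below each NS library. The summed S phase list given above separated in the same way. The share of all genes or sets that do so is not given here, so the separation cannot be read as particular to histone genes. As sums over a chosen set, these values are descriptions and carry no test.

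Some untested genes, picked here after their values were seen, departed from their group in 1 library. Hist2h2be, for H2B, had 18 of its 29 counts in Sorb200 2, and Hist1h4h, for H4, had 15 of its 45 counts in Sorb300 1. The pair Hist1h2bj and Hist1h3h had counts in the direction of the called cluster genes. Hist1h2bj, for H2B, had 3, 1 and 0 counts in Sorb300, against 17, 9 and 8 in NS, and Hist1h3h, for H3, had 2, 2 and 0 counts in Sorb300, against 16, 9 and 4 in NS. When no filter on low counts was applied, these 2 genes were called lower at 300 mM as well, at -2.92 (adjusted p = 0.0143) and -2.64 (adjusted p = 0.0336), where 3.22% of all genes were lower.

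**Figure D4:**
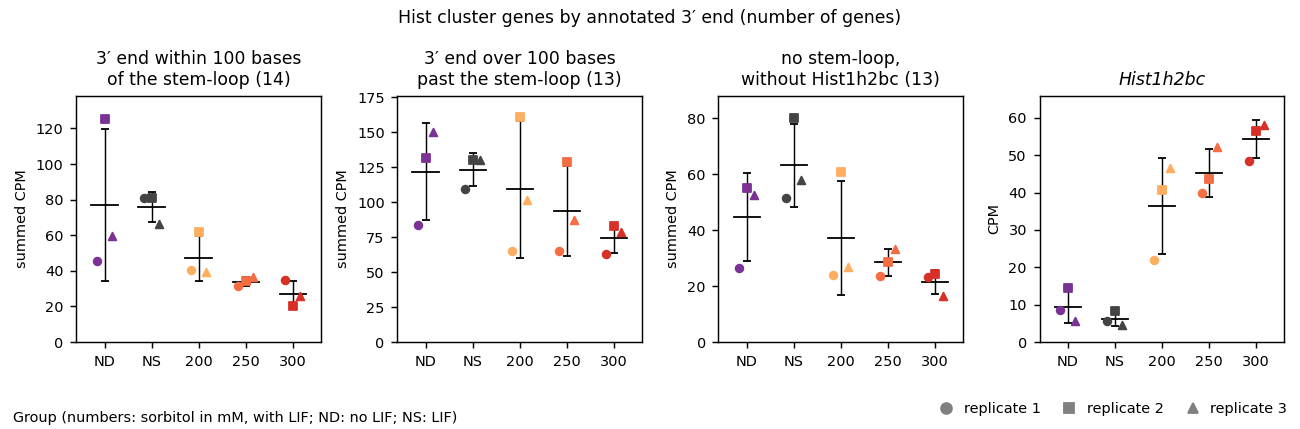
Summed CPM per library of cluster genes whose longest annotated transcript ends within 100 bases past the stem-loop, ends farther on, or holds no stem-loop. Hist1h2bc is alone at the right, lines are means and bars SD (n = 3). At 300 mM the 3 summed sets average 26.9, 74.5 and 21.5 CPM, and in NS 75.9, 123 and 63.2 CPM.

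The cluster genes were also divided by the annotated 3′ end, at a limit of 100 bases that was chosen after the values were seen. The 14 genes that end within 100 bases of the stem-loop summed to 20.2 to 34.8 CPM at 300 mM, against 66.0 to 80.9 CPM in NS. The 13 genes that run on farther summed to 62.6 to 82.6 CPM at 300 mM, against 109 to 130.3 CPM in NS. The 13 genes with no stem-loop in the longest annotated transcript, Hist1h2bc left out, summed to 16.6 to 24.4 CPM at 300 mM, against 51.6 to 79.98 CPM in NS. One of them, Hist1h2bp, has a stem-loop in 1 of its 2 coding transcripts. A stem-loop would also be missed where the annotated transcript stops short of the 3′ end, so this set is not a class of 3′ end. Each set was lower in all 3 Sorb300 libraries than in all 3 NS libraries, with no share of other sets that do so at hand. Whether the sets differ was not tested.

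Among the 10 tested variants, 1 gene was called against NS, H1fx at 300 mM, where 4.66% of all genes were lower. H1fx (chr6:87980421-87981637, minus strand) had 84.9, 75.0 and 53.4 CPM at 300 mM, against 224, 178 and 111 CPM in NS, and fell by 1.26 (SE 0.31, adjusted p = 0.0201). It was also at -0.78 ± 0.30 at 200 mM (adjusted p = 0.324) and at -0.79 ± 0.30 at 250 mM (adjusted p = 0.135), beside -0.85 in ND. The call at 300 mM was lost without NS 1 (-1.01, adjusted p = 0.103), NS 2 (-1.22, 0.0694), Sorb300 2 (-1.30, 0.0754) or Sorb300 3 (-1.09, 0.0912). In sorbitol minus ND, H1fx was at -0.10 ± 0.25 (adjusted p = 0.857).

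**Figure D5:**
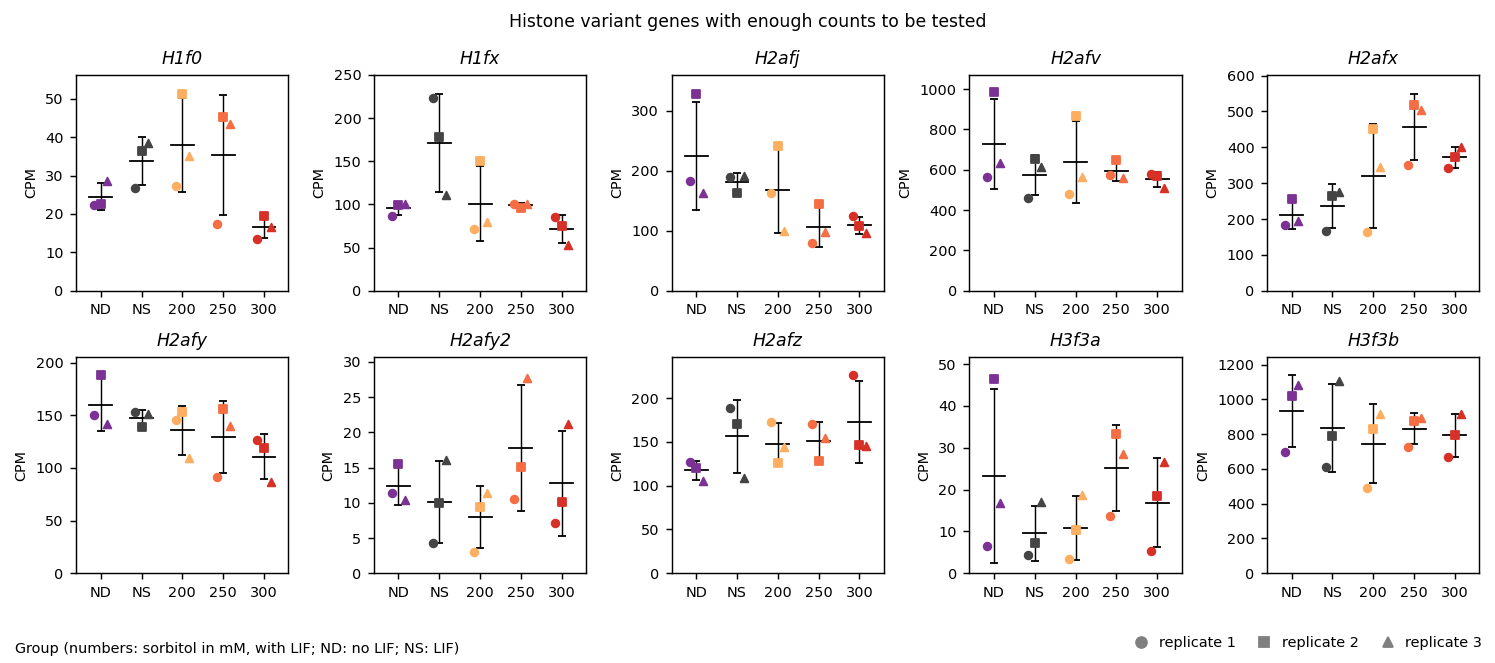
Expression of the 10 tested variant genes in each library (CPM, linear axes from 0); points are libraries, lines means and bars SD (n = 3). H2afx lies at 343 to 517 CPM in the Sorb250 and Sorb300 libraries and at 165 to 277 CPM in NS, and H1fx has its highest mean in NS.

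H2afx encodes H2A.X, the variant that is phosphorylated at DNA breaks. It had 185, 257 and 195 CPM in ND. It had 165, 265 and 277 CPM in NS, 164, 449.9 and 344 CPM at 200 mM, 352, 517 and 504 CPM at 250 mM, and 343, 373 and 401 CPM at 300 mM. All 6 libraries at the 2 higher doses were above the NS and ND libraries. The change did not pass the test at 250 mM (0.96 ± 0.31, adjusted p = 0.0848), at 300 mM (0.66 ± 0.31, adjusted p = 0.201) or for sorbitol minus ND (0.84 ± 0.27, adjusted p = 0.0542). It passed at 250 mM in DESeq2 (adjusted p = 0.0451), without a filter on low counts (0.0346), with the replicate block (0.00516) and without NS 3 (0.0463), and at 300 mM with the block (0.0273). For sorbitol minus ND it passed in 7 alternatives, with an adjusted p of 0.00391 (the block) to 0.0461 (library totals).

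H2afj and H1f0 were lower at 300 mM than in NS, without passing the test. H2afj, an H2A variant gene, had 79.1, 144 and 97.4 CPM at 250 mM and 124, 107 and 95.8 CPM at 300 mM, against 189, 164 and 191 CPM in NS. Both doses lay below NS, at -0.77 ± 0.33 (adjusted p = 0.182) and -0.73 ± 0.33 (adjusted p = 0.179). H1f0, the linker histone typical of slowly dividing and differentiated cells, had 13.6, 19.4 and 16.6 CPM at 300 mM, against 26.8, 36.4 and 38.4 CPM in NS, at -1.03 ± 0.37 (adjusted p = 0.0939). Between Sorb300 and Sorb200 it had the lowest adjusted p of the histone genes, at -1.19 ± 0.37 (adjusted p = 0.283), and the change at 200 mM was 0.16 ± 0.35 (adjusted p = 0.928).

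The remaining variants were called in none of the 6 pairwise comparisons, and among the alternatives the block alone called 1 of them, H3f3a at 250 mM (adjusted p = 0.0222). H3f3b, for the replication-independent H3 variant, ranged over 487 to 1107 CPM across the 15 libraries, and its changes against NS lay between -0.17 at 200 mM and 0.16 in ND. H3f3a, for the same protein, ranged over 3.48 to 46.6 CPM, with its highest value in ND 2, and changed by 1.26 ± 0.76 in ND (adjusted p = 0.809) and 1.45 ± 0.74 at 250 mM (adjusted p = 0.261). H2afz, for H2A.Z, found at promoters, ranged over 105 to 227 CPM, and H2afv, for its close relative, over 461 to 984 CPM. The macroH2A genes H2afy and H2afy2, tied to silent chromatin, ranged over 86.6 to 189 CPM and 2.99 to 27.7 CPM. H2afy was at -0.41 ± 0.25 at 300 mM (adjusted p = 0.316).

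H1foo, the oocyte linker histone, was too low to test, with 3, 4 and 3 counts in ND, 1, 0 and 0 in Sorb200, 0, 1 and 0 in Sorb250, 0 in each Sorb300 library, and 0, 4 and 0 in NS. Without a filter on low counts it was called lower in sorbitol minus ND (adjusted p = 0.0146), where 4.24% of all genes were. Summed, the 11 variants held 2178 to 2271 CPM at 300 mM, against 2027 to 2630.3 CPM in NS, with overlap in every group. Their medians of change were 0.02 at 250 mM and -0.07 at 300 mM over the 10 tested.

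Genes that transcribe, process and carry histones were taken from lists and read against the shares of all genes called that are given above. Of 12 tested factors of histone transcription and 3′ end processing, 0 were called in any of the 6 pairwise comparisons by edgeR's quasi-likelihood test. Of all genes, 4.47% were called at 250 mM and 7.89% at 300 mM. At most 3 of the 12 had an unadjusted p under 0.05 in that test, in Sorb300 minus Sorb200, where 9.3% of all genes did. Slbp, whose protein binds the stem-loop, was untested, with 20 counts in ND, 9 in Sorb200, 24 in Sorb250, 18 in Sorb300 and 23 in NS. Npat, the activator of cluster genes in S phase, averaged 28.2 CPM at 300 mM, against 32.7 CPM in NS (-0.21 ± 0.28, adjusted p = 0.693). Casp8ap2, also required for histone transcription, averaged 30.4 CPM at 250 mM, against 59.96 CPM in NS (-0.98 ± 0.27, adjusted p = 0.0514), and 34.3 CPM at 300 mM (-0.82 ± 0.27, adjusted p = 0.0759).

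Among 15 tested chaperones of replication histones, 1 fell at 250 mM, where 2.46% of all genes did, and 2 at 300 mM, where 4.66% did. Chaf1b, a subunit of the CAF-1 complex that loads H3 and H4 behind the replication fork, averaged 36.7 CPM at 250 mM and 25.5 CPM at 300 mM, against 105 CPM in NS. It fell by 1.53 at 250 mM (SE 0.39, adjusted p = 0.0348) and by 2.02 at 300 mM (SE 0.40, adjusted p = 0.00757). The call at 250 mM was lost without NS 1, NS 2 or any 1 of the Sorb250 libraries (adjusted p of 0.0588 to 0.194), and that at 300 mM stood under each omission. Asf1a, which hands H3 and H4 to CAF-1, fell by 0.97 at 300 mM (SE 0.29, adjusted p = 0.05 after rounding, just under the threshold), a call that held in 3 of 14 alternatives. Chaf1a, the large CAF-1 subunit, was at -0.17 ± 0.25 there (adjusted p = 0.734), Asf1b at -0.33 ± 0.39 (adjusted p = 0.663) and the H3 and H4 carrier Nasp at -0.58 ± 0.23 (adjusted p = 0.128). In sorbitol minus ND, Npm1 (-0.84 ± 0.20, adjusted p = 0.0115) and Nap1l1 (-0.55 ± 0.16, adjusted p = 0.0406) were lower. Npm1 was lost in 2 of 20 alternatives, without ND 2 (adjusted p = 0.0778) and with replicates 2 and 3 only, and Nap1l1 in 14 of 20.

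Of 14 tested chaperones of variants and remodellers, 1 rose, where 2.01% of all genes were higher at 250 mM, 3.23% at 300 mM and 4.62% in sorbitol minus ND. Daxx, which deposits the replication-independent H3 variant with Atrx, averaged 116.8 CPM at 250 mM and 117.2 CPM at 300 mM, against 57.98 CPM in NS. It rose by 1.01 ± 0.22 at both doses (adjusted p = 0.0177 at 250 mM and 0.0118 at 300 mM) and was higher in sorbitol than in ND by 0.60 ± 0.18 (adjusted p = 0.0454). Omissions of 1 library gave an adjusted p of up to 0.0886, 0.065 and 0.177 in these 3 comparisons. Among all alternatives the call held in 9 and was lost in 5 at 250 mM, and held in 10 and was lost in 4 at 300 mM. In sorbitol minus ND it held in only 6 and was lost in 14. Atrx, which was not called, averaged 804, 391 and 419 CPM at 200, 250 and 300 mM, against 646 CPM in NS. Hira, which deposits the same variant at active genes, was at -0.30 ± 0.36 at 300 mM (adjusted p = 0.659). Of 32 tested S phase and proliferation genes, Top2a alone was called, where 2.46% of all genes were lower at 250 mM, 4.66% at 300 mM and 5.85% in sorbitol minus ND. Top2a, a DNA topoisomerase, was at -1.16 ± 0.21 at 250 mM (adjusted p = 0.00636), -1.25 ± 0.21 at 300 mM (adjusted p = 0.00275) and -0.99 ± 0.16 in sorbitol minus ND (adjusted p = 0.000876). The list's median change at 300 mM was -0.16, against -0.01 over all genes.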

How the data were processed

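Read counts per gene symbol were deposited by the authors in 4 tables of 3′ tag libraries, as whole numbers without normalization. The submitters' processing notes name CASAVA 1.8.2, STAR, HTSeq, edgeR and build mm9; the treatment of reads that align to several genes is not given in the sources used here. Histone genes have near-identical copies, so a count may be split between them and every histone value is uncertain to that extent. Of the 52 symbols, 20 carried an Ensembl identifier that GENCODE assigns to another symbol and 25 shared one, so genes were taken by symbol.

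Counts were tested with edgeR 4.0.16 (R 4.3.3; TMM scaling, filterByExpr with a minimum count of 10 and total of 15, quasi-likelihood F test) in 1 fit of the 15 libraries by group. P-values were adjusted by Benjamini and Hochberg over all 9390 genes, and 0.05 was the threshold. SE is the change divided by the root of F, and CPM uses TMM library sizes. The method was tested on simulated data. Alternatives were DESeq2 1.42.0, other scaling and filters, a replicate block, compared groups only, replicates 2 and 3, and leaving out each library. Replicates were stated to be biological experiments. Deviations of same-numbered libraries from their group means correlated above 0.1 in all 3 pairs for 4 of 10 group pairs, Sorb200 and NS among them. The main fit treated no libraries as paired, and the replicate number entered as a block in an alternative only.

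Named were all variants, cluster genes past the threshold, the 5 most abundant, the extremes of each comparison, and fixed or called genes of the supply lists. Members and lists were chosen with earlier results of these data known. The limit of 3 counts covers counting error only, while the SE includes the spread between replicates.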

Additional observations from a re-analysis of the deposited data

How the results depend on the processing

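No called change of a histone or supply gene turned its direction under any alternative; 159 recomputed values of the 13 called histone changes kept significance and 49 lost it. Histone genes called, with edgeR's quasi-likelihood test unless named, were 0 between ND and NS throughout. At 200 mM (1 gene) 0 were called with replicates 2 and 3 only and 0 in the compared groups only, and 1 at each omission of a library. At 250 mM (1 gene) DESeq2 called 2, the fit without a low-count filter 2, and omissions 1 to 4, with 4 without NS 3. At 300 mM (6 genes) replicates 2 and 3 gave 1, the compared groups 3 and omissions 1 to 7. For sorbitol minus ND (5 genes) no filter gave 9, replicates 2 and 3 gave 3, the compared groups 3 and omissions 1 to 6; H2afj was not called with library totals (adjusted p = 0.0647). Over the 5 groups (3 genes) DESeq2 gave 8, no filter 12, replicates 2 and 3 gave 1 and omissions 1 to 5. With the replicate block, which for pairs other than Sorb200 and NS (and Sorb200 with ND, and neighbouring doses) rests on a shared number only, 8 histone genes were called at 250 mM, 10 at 300 mM, 1 for Sorb300 minus Sorb200 and 10 over the 5 groups. In all, 24 of 30 same-numbered pairs correlated above 0.1.

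Of all genes, the counts called moved more. ND minus NS (3) gave 1 with DESeq2 size factors, 26 with DESeq2, 37 without a filter, 40 with the block, 0 with replicates 2 and 3, 0 in the compared groups and 0 to 74 under omissions. Sorb200 minus NS (55) gave 161 with DESeq2, 161 without a filter, 268 with the block, 4, 1 and 12 to 150 in the same order. Sorb250 minus NS (420) gave 742, 825, 1683 and 28, and 84 to 1413 under omissions. Sorb300 minus NS (741) gave 1869 with the block, 116 with replicates 2 and 3, 462 in the compared groups and 210 to 1500. Sorb300 minus Sorb200 (2) gave 35, 58, 119, 0 and 0, and 0 to 10. Sorbitol minus ND (983) gave 1830 with the block, 404 with replicates 2 and 3, and 537 to 1120. The test over 5 groups (748) gave 1305, 1487, 2018 and 163, and 440 to 1298.

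Another scaling shifted the median of all genes by at most 0.09 (log2) and moved each summed cluster and variant level by less than its SD. Where a library was left out, the lone pair of its group was assumed to vary like the others. Many cluster genes had under 3 counts in some libraries, which limits precision there.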
